A study of Mus musculus with 186 samples.

Results

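The AP-1 family of transcription factors is described here through 7 genes, Fos, Fosb, Fosl1, Fosl2, Jun, Junb and Jund, picked by name from the 28338 gene symbols of an RNA-sequencing table of mouse brain. All 7 were in the table. The study measured bulk RNA in libraries from frozen, microdissected brain tissue of Akap11 mutant mice, and Akap11 encodes an anchoring protein for protein kinase A (PKA). Tissue was taken from striatum, thalamus, substantia nigra, hippocampus and the prefrontal and somatosensory areas of cortex. Mice were 4 weeks old (96 libraries) or 12 weeks old (90 libraries), and their genotype was WT, Akap11 +/- (HET) or Akap11 -/- (KO). Of the 36 groups of region, age and genotype, 30 held 5 libraries and 6 held 6. The labels give no strain, sex or allele design and do not say that each library is a separate animal, so the p-values measure the spread between these libraries.

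AP-1 is a dimer of leucine-zipper proteins. Fos proteins need a Jun partner, whereas Jun proteins also pair among themselves, and the dimers bind a short palindrome in promoters and enhancers. In neurons Fos, Fosb and Junb are immediate early genes, transcribed rapidly after calcium entry or cAMP and PKA signalling through factors such as CREB, SRF with its ELK partners, and MEF2.

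The promoters of Fos, Fosb and Junb, whose levels varied together between libraries, are shown first. That of Jun, which passed the correlation test with Fos in 1 of 6 regions, is shown with them. Each line gives the bases before the start site that RefSeq places on GRCm38.p6, on the strand of the gene, and capitals mark motif matches. The motifs searched on both strands were TGACG (the core of the CREB site), TGANTCA (the AP-1 palindrome), TGACATCA (its variant in the Jun promoter), the CAAT box as CCAAT, the TATA box as TATAAA, the CArG box of SRF and the MEF2 box.

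Fos, chr12:85473640-85473889, plus strand: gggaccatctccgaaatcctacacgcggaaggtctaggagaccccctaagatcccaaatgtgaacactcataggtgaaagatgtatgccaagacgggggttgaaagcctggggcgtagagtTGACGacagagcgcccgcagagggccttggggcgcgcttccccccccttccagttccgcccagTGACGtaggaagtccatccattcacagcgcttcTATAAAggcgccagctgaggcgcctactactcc
Fosb, chr7:19310052-19310295, minus strand: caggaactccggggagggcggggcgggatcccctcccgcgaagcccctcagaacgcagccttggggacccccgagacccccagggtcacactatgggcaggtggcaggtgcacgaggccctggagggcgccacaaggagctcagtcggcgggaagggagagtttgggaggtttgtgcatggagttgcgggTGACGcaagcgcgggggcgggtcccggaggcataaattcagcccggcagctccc
Junb, chr8:84978749-84978998, minus strand: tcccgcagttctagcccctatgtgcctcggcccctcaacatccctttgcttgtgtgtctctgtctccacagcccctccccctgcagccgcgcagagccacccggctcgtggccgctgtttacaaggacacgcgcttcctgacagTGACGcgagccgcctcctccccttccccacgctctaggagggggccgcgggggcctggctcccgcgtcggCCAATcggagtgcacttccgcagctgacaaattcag
Jun, chr4:95052223-95052472, minus strand: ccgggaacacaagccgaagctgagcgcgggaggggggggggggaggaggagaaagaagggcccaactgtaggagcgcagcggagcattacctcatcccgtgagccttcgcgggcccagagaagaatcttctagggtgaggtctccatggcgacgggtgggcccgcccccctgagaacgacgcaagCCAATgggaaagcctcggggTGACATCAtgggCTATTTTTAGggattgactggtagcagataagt

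TGACG matched in Fos at 129 to 125 and at 66 to 62 bases before the start, in Fosb at 60 to 56 bases and in Junb at 106 to 102 bases. In Jun the matches were TGACATCA at 45 to 38 bases and a MEF2 box at 33 to 24 bases, the latter on both strands. Fos also held TATAAA at 33 to 28 bases, and CCAAT lay at 36 to 32 bases in Junb and at 65 to 61 bases in Jun. None of these matches overlapped a match of another motif. Of 32851 RefSeq promoter windows, 17.8% held the motif TGACG, 2.93% held TGACATCA, 2.92% held a MEF2 box and 12.4% held TATAAA. The share was 33.8% for CCAAT, 6.75% for TGANTCA and 1.47% for the CArG box. The bases shown number 250 (244 for Fosb), and sites farther upstream were not searched. The lack of a CArG match here thus does not show that a promoter has no such site. A match is a string of letters and not a bound site. Promoter entries were found for 6 of the 7 members.

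On GRCm38 the GENCODE M21 annotation places Fos (ENSMUSG00000021250) on chromosome 12 from 85473890 to 85477273 and Fosb (ENSMUSG00000003545) on chromosome 7 from 19302696 to 19310051. Fosl2 (ENSMUSG00000029135) lies on chromosome 5 from 32135801 to 32157842 and Fosl1 (ENSMUSG00000024912) on chromosome 19 from 5447547 to 5455946. The longest transcript of each of these genes has 4 exons. The longest transcripts of the Jun genes have 1 exon, with Jun (ENSMUSG00000052684) on chromosome 4 from 95049034 to 95052222, Junb (ENSMUSG00000052837) on chromosome 8 from 84974484 to 84978718 and Jund (ENSMUSG00000071076) on chromosome 8 from 70698949 to 70700616. All 7 are annotated as protein coding.

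The deposited values are expected counts, which sum to 20.8 to 73.3 M per library (mean 46.1 ± 9.6 M, SD over all libraries) and are given here as CPM, counts scaled to the library's TMM-adjusted total in M. Akap11 stood at 11.7 to 24.5 CPM in KO, 90.9 to 222 in HET and 44.8 to 436 in WT libraries, and the 4-week nigral library labelled WT 92 held the lowest WT value. Marker scores, the mean log2(CPM + 1) of a marker list, were higher in all 30 striatal libraries for striatal projection neurons, and in all 32 nigral libraries for dopamine neurons, than in any other library, the latter by a narrow margin (2.295 in 4-week WT 42 against at most 2.272 elsewhere). The thalamic list placed 30 of 31 thalamic libraries above all others and the hippocampal list 30 of 31 hippocampal libraries. The list for cortical and hippocampal excitatory neurons placed 84 of 93 libraries of those regions above all others. Some 4-week libraries stood apart. The striatal libraries KO 51, KO 161, KO 163 and WT 92 scored 5.77, 6.28, 5.25 and 5.1 for cortical and hippocampal excitatory neurons, against 0.445 to 1.53 in the other striatal WT and KO libraries of that age and up to 3.03 in HET. The thalamic library WT 913 scored 5.44. The main results that rest on these libraries, on thalamic WT 914 and WT 23, or on nigral WT 92, WT 42, KO 44 and KO 91 are also given without them.

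Fosl1 (FRA1) was close to absent. It was at 0 in 58 libraries and never exceeded 14 expected counts or 0.341 CPM, so it passed the filter on low counts in no fit. The other 6 members were tested in every comparison.

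Per kilobase of longest transcript, Jund had the highest mean level of the family in each WT group except striatum. The WT group means ran from 36.7 to 94.6 CPM per kilobase for Jund, 4.31 to 73.5 for Junb, 6.97 to 33.5 for Fos, 6.42 to 25.2 for Jun, 0.886 to 9.5 for Fosl2 and 0.568 to 8.63 for Fosb. In striatum Junb and Jund stood at 64 ± 18 and 61.2 ± 8.51 CPM per kilobase at 4 weeks and at 52.1 ± 18.4 and 51 ± 6.05 at 12 weeks (SD, n = 5), differences within their spread. So were those in prefrontal cortex, with 73.5 ± 22.5 and 74.6 ± 10.9 at 4 weeks and 49.8 ± 12.3 and 55.8 ± 5.36 at 12 weeks (SD, n = 5). The highest Jund mean, 94.6 ± 67.3 (SD, n = 6), was that of 4-week substantia nigra, where WT 92 held 376 CPM.

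**Figure D1:**
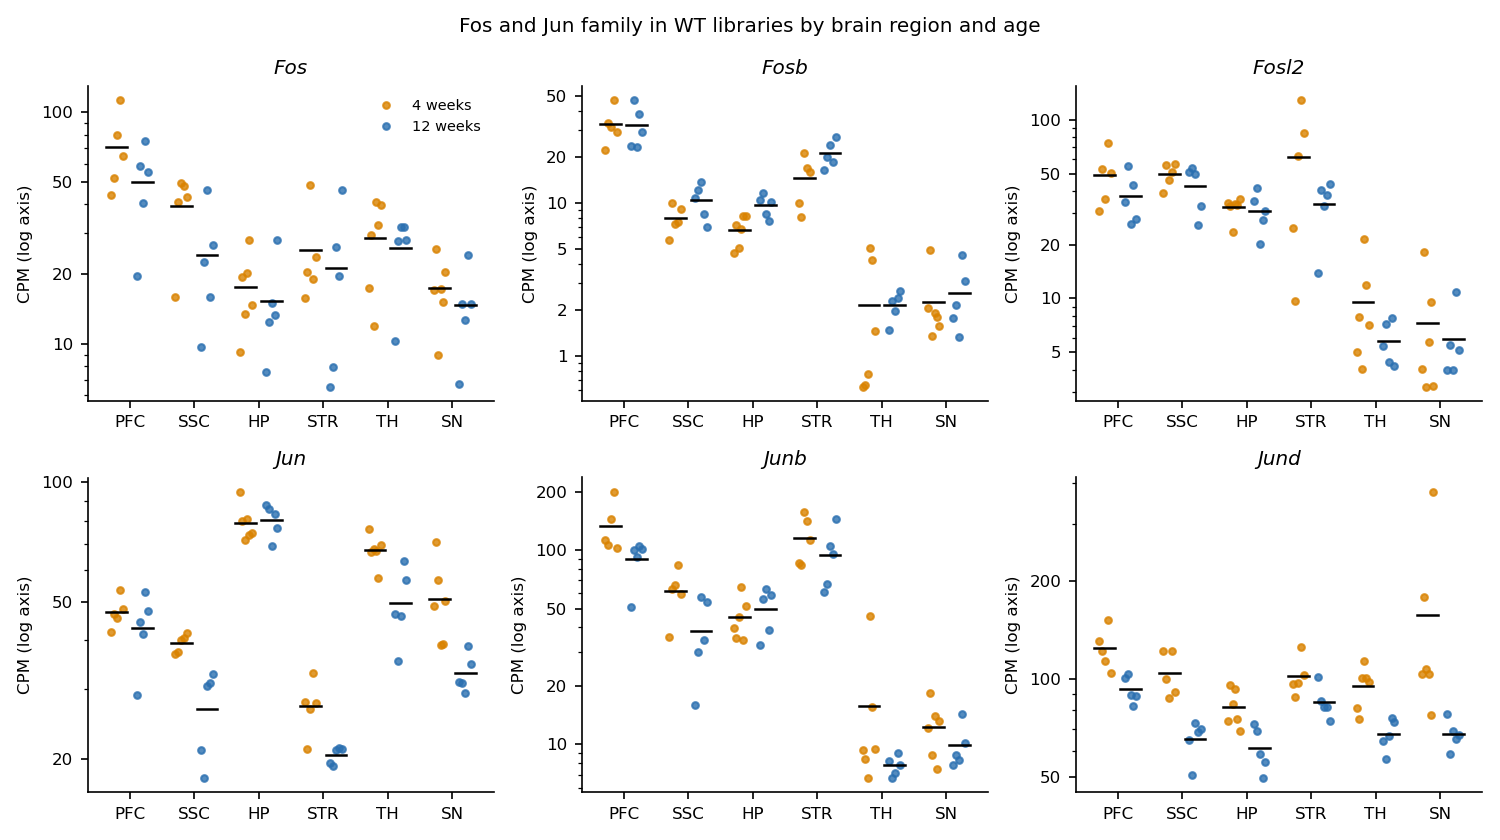
CPM (log axis) of the 6 tested members in WT libraries of the 6 regions at 4 and 12 weeks, with points for libraries and bars for group means. Fosb, Fosl2 and Junb are lowest in thalamus and substantia nigra, Jun is highest in hippocampus and lowest in striatum, and 1 nigral library holds Jund at 376 CPM.

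The first comparison asked how WT levels differed between regions. Each region was tested against the mean of the other 5 with edgeR's quasi-likelihood test and Benjamini-Hochberg adjustment over all genes. Genes with an adjusted p under 0.05 are said to be called. In bulk tissue, fewer cells of a type and less RNA per cell cannot be told apart. Of 36 tests of member and region, 22 were called at 4 weeks (11 higher, 11 lower) and 23 at 12 weeks (14 higher, 9 lower). At 4 weeks the share of all tested genes called was 48.1% (thalamus), 52.9% (striatum), 36.4% (hippocampus), 59% (substantia nigra), 43% (prefrontal) and 38.4% (somatosensory). At 12 weeks it was 66.9%, 67.3%, 54.4%, 67.8%, 57% and 56.4% in the same order. The members' share is near this background, so the number of calls is not a result about the family, and what follows gives directions and sizes.

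Fos, the immediate early gene that gives the Fos subfamily its name, was highest in prefrontal cortex at both ages. Its 4-week WT libraries held 44, 52.2, 65, 79.6 and 112 CPM there and its 12-week libraries 19.6, 40.7, 55.3, 58.6 and 74.7 CPM. Prefrontal cortex lay above the other regions by 1.52 ± 0.24 (log2, SE, adjusted p 4.66e-06) at 4 weeks and by 1.33 ± 0.32 (adjusted p 0.000772) at 12 weeks. Hippocampus and substantia nigra were lowest, with 4-week means of 17.5 ± 6.62 and 17.5 ± 5.54 CPM (SD, n = 6). Both were called lower at that age, with differences of -0.89 ± 0.27 (adjusted p 0.00895) and -0.93 ± 0.27 (0.00378). At 12 weeks neither was called, with -0.72 ± 0.38 (0.109) and -0.78 ± 0.38 (0.0675). Hippocampus was called at 12 weeks without WT 5 (-1.05, 0.0358). Substantia nigra was called without WT 1 of prefrontal cortex, WT 4, WT 1 of somatosensory cortex, WT 1 and 2 of striatum and WT 1 of thalamus, left out singly (0.0296 to 0.0487). In the order of mean levels each region's libraries overlapped those of the next at both ages.

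Fosb, whose truncated splice form deltaFosB is known to accumulate in striatal neurons, had a steeper gradient. At 4 weeks its WT means were 32.6 ± 9.1 CPM in prefrontal cortex, 14.5 ± 5.36 in striatum and 7.96 ± 1.7 in somatosensory cortex (SD, n = 5). They were 6.69 ± 1.51 in hippocampus, 2.27 ± 1.32 in substantia nigra and 2.15 ± 2.01 in thalamus (SD, n = 6). The highest and lowest regional means differed by a ratio of 15.2 at 4 weeks and 14.9 at 12 weeks, the widest range of the tested members. Prefrontal cortex was higher by 2.64 ± 0.27 and 2.29 ± 0.16 (log2, SE) at the 2 ages and striatum by 1.27 ± 0.29 and 1.59 ± 0.17, with adjusted p of at most 0.00055.

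Fosb was called lower in thalamus, with differences of -2.03 ± 0.35 and -2.39 ± 0.23, and in substantia nigra, with -1.995 ± 0.35 and -2.07 ± 0.23 (adjusted p at most 1.96e-05). The 4-week thalamic libraries WT 913 and WT 914 held 5.09 and 4.27 CPM against 0.632 to 1.46 in the other 4. Their thalamic marker scores were 7.12 and 7.25, against 7.74 to 8.28 in the others. Without the libraries that stood apart the 4-week difference was -3.21 (adjusted p 6.00e-08).

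Fosl2 (FRA2), a Fos relative without the strong activation domain of FOS, formed 2 tiers. Both cortices, hippocampus and striatum had WT means between 31.1 ± 8.06 and 62.1 ± 47.5 CPM, and thalamus and substantia nigra between 5.79 ± 1.62 and 9.59 ± 6.49 CPM. Every hippocampal WT library lay above every thalamic one at both ages, while neighbours within the upper tier overlapped. The tiers overlapped at 4 weeks through striatal WT 42 (9.73 CPM). It lay below thalamic WT 913 (21.6) and WT 914 (12) and nigral WT 23 (18.1). The striatal mean at 4 weeks is the least certain, since its libraries held 9.73, 24.8, 63, 84.4 and 128 CPM, and 84.4 CPM belongs to WT 92, with its high cortical score.

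Junb, the Jun gene induced together with Fos, was distributed like Fosb. Its 4-week WT libraries held 103, 106, 112, 145 and 199 CPM in prefrontal cortex and 83.9, 85.5, 112, 141 and 157 CPM in striatum, and these groups overlapped. Medians in thalamus and substantia nigra were 9.4 and 12.7 CPM at 4 weeks and 7.88 and 8.78 CPM at 12 weeks. Prefrontal cortex was higher by 1.86 ± 0.25 (log2, SE, adjusted p 2.57e-07) at 4 weeks and striatum by 1.84 ± 0.18 (5.34e-10) at 12 weeks. The difference in thalamus was -1.79 ± 0.30 at 4 weeks and -2.50 ± 0.26 at 12 weeks. At 4 weeks the thalamic library WT 913 held 45.6 CPM of Junb against 6.72 to 15.6 in the other 5, and without the libraries that stood apart the difference was -2.72. Without the libraries that stood apart, Junb was also called higher in 4-week somatosensory cortex (0.72, adjusted p 0.00177, against 0.56 ± 0.27 and 0.102 with them).

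Jun, the member activated by JNK kinases, had another order. Its 4-week WT libraries in hippocampus ranged from 71.7 to 94.7 CPM with a median of 77.2, and in thalamus from 57.4 to 76.1 with a median of 67.5. In striatum they held 21.2, 26.7, 27.8, 27.9 and 33.1 CPM, below every WT library of the other regions at that age. Hippocampus was higher by 0.82 ± 0.08 and 1.29 ± 0.11 (log2, SE) at the 2 ages and thalamus by 0.56 ± 0.09 and 0.44 ± 0.11. Striatum differed by -0.98 ± 0.10 and -1.07 ± 0.13 and somatosensory cortex by -0.36 ± 0.10 and -0.61 ± 0.13. The adjusted p of these differences was at most 0.00424.

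Jund, known as the Jun gene with steady expression at rest, varied least between regions. At 12 weeks the highest and lowest regional means differed by a ratio of 1.52, from 93 ± 8.94 CPM in prefrontal cortex to 61.2 ± 9.7 in hippocampus (SD, n = 5). Differences of 0.42 ± 0.08 in prefrontal cortex (adjusted p 4.15e-05), 0.29 ± 0.08 in striatum (0.00201) and -0.29 ± 0.08 in hippocampus (0.00404) were called at that age. At 4 weeks substantia nigra was called higher (0.60 ± 0.17, adjusted p 0.00394). That value rests on WT 92 at 376 CPM, against 77.5 to 179 in the other 5, and without this library the difference was 0.17 with an adjusted p of 0.224. Without the libraries that stood apart, prefrontal cortex was called higher at 4 weeks (0.33, adjusted p 0.0294, against 0.24 ± 0.19 and 0.338 with them). The call in 4-week hippocampus (-0.49 ± 0.19, adjusted p 0.0397) was lost without WT 142, 42, 914 and 92, WT 142 of prefrontal cortex, WT 23 of substantia nigra, WT 914 of striatum and WT 42 of thalamus, left out singly (up to 0.104).

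The age comparison set WT libraries of 12 weeks against those of 4 weeks in each region. Age and the batch of the libraries cannot be told apart. Of 36 tests of member and region, 8 were called, 1 higher and 7 lower at 12 weeks. The share of all genes called was 14.3% (thalamus), 13.6% (striatum), 12.9% (hippocampus), 4.24% (substantia nigra), 13.8% (prefrontal) and 22.8% (somatosensory). Jun and Jund made up the 7 lower calls and Fosb the higher one.

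Jund was lower at 12 weeks in 4 regions. In somatosensory cortex its libraries held 87.3, 90.9, 100.1, 121 and 122 CPM at 4 weeks and 50.8, 65, 68.7, 70.2 and 73 CPM at 12 weeks, a change of -0.67 ± 0.11 (log2, SE, adjusted p 0.00116). The change was -0.42 ± 0.10 in prefrontal cortex (adjusted p 0.016), -0.49 ± 0.12 in thalamus (0.0173) and -0.41 ± 0.11 in hippocampus (0.0324). Left out singly, 4-week WT 23, 42 and 913 and 12-week WT 3, 4 and 5 each ended the hippocampal call, with adjusted p up to 0.0762. Striatum gave -0.23 ± 0.10 (0.151). Substantia nigra gave -1.21 ± 0.37 (0.0866), and without WT 92 it gave -0.75 with an adjusted p of 0.017. There DESeq2 called Jund with all libraries (-1.23, adjusted p 0.0141), and edgeR did without the libraries that hold few whole-number values (-0.85, 0.0056).

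The Jund transcript is rich in G and C, at 67.15% of its bases, which places it at percentile 99.69 of the genes. Genes at least as rich in G and C had a median change between -0.22 in striatum and -0.84 in substantia nigra, while the median of all genes lay between -0.01 and 0.02. There were 24 to 32 such genes in a region. The 5 genes that varied most like Jund over all libraries (Scand1, Zfp771, Pcsk1n, Tpgs1 and Pgp) had changes below 0 in all 6 regions, from -0.03 to -1.48. Their G and C shares were 68.38%, 68.67%, 57.27%, 65.27% and 56.26% in that order, so not all were as rich as Jund. The part of base composition in the Jund values was not tested.

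Jun was lower at 12 weeks in somatosensory cortex (-0.55 ± 0.14, log2, SE, adjusted p 0.0106), striatum (-0.38 ± 0.10, 0.0225) and thalamus (-0.45 ± 0.13, 0.0425). In striatum the libraries ranged from 21.2 to 33.1 CPM at 4 weeks and from 19.2 to 21.3 CPM at 12 weeks. Only the highest 12-week library lay above the lowest 4-week one. The striatal call was lost without 12-week WT 1 or WT 2 (adjusted p up to 0.0556) and without the libraries that hold few whole-number values (0.0799). The thalamic call was lost without 4-week WT 142, 23, 42 and 92 and 12-week WT 1, 2 and 3, left out singly (up to 0.0967), and without the libraries that stood apart (-0.53, 0.0525). Substantia nigra gave -0.61 ± 0.16 (0.0603), and -0.58 (0.033) without those that stood apart. There DESeq2 called Jun with all libraries (-0.62, adjusted p 0.00666), and edgeR did without the libraries that hold few whole-number values (-0.69, 0.0123). Hippocampus, where Jun is highest, gave 0.03 ± 0.08 (adjusted p 0.819).

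Among the Fos genes, Fosb was higher at 12 weeks in hippocampus (0.54 ± 0.16, log2, SE, adjusted p 0.0443), from 6.69 ± 1.51 CPM (SD, n = 6) to 9.67 ± 1.6 CPM (SD, n = 5). This call was lost without 4-week WT 142, 23, 42 and 913 and 12-week WT 1, 2, 3 and 5, left out singly (adjusted p up to 0.105). With 1 library left out, Fosb was also called higher in 2 regions where it was not called with all libraries. These were somatosensory cortex without 12-week WT 5 (0.50, adjusted p 0.0453) and striatum without 4-week WT 913 (0.77, 0.0395). In thalamus Fosb gave -0.01 ± 0.56, and without the libraries that stood apart 1.15 with an adjusted p of 0.0366. Fos was called in no region, with changes from -0.70 ± 0.34 in somatosensory cortex to -0.14 ± 0.35 in thalamus. The thalamic sign turned without the libraries that stood apart (0.17). Without 12-week WT 3 the change in somatosensory cortex was -1.07 with an adjusted p of 0.0244. Neither Junb nor Fosl2 was called by edgeR in a region. Junb gave -0.56 in prefrontal cortex (adjusted p 0.0878, and 0.0437 with DESeq2). In somatosensory cortex edgeR called Junb without 4-week WT 142 (-0.83, adjusted p 0.0496) or 12-week WT 3 (-0.88, 0.0388).

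The genotype comparisons asked whether loss of Akap11 changed the family. No member was called by edgeR in KO against WT in any region at either age. At an unadjusted p under 0.05 there were 7 of 36 tests at 4 weeks and 8 of 36 at 12 weeks. Of all genes, 4.87% (somatosensory) to 17.9% (striatum) passed that threshold at 4 weeks. At 12 weeks 2.91% (hippocampus) to 15.9% (striatum) did. DESeq2 called 3 members at 4 weeks and 1 at 12 weeks. In the comparisons concerned it called 40 genes in 4-week somatosensory cortex, 208 in 4-week thalamus and 1036 in 12-week striatum. The share of all genes called by edgeR was 3.35% in striatum at 4 weeks and 4.42% at 12 weeks. Elsewhere at 4 weeks it was 0.0128% (thalamus), 0.00609% (hippocampus), 0.00617% (substantia nigra), 0.0125% (prefrontal) and 0.0564% (somatosensory). At 12 weeks it was 0.0064%, 0.00608%, 0.0364%, 0.0123% and 0.0252% in the same order. A count of 0 among 6 members is near each of these shares and is not a result about the family.

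**Figure D2:**
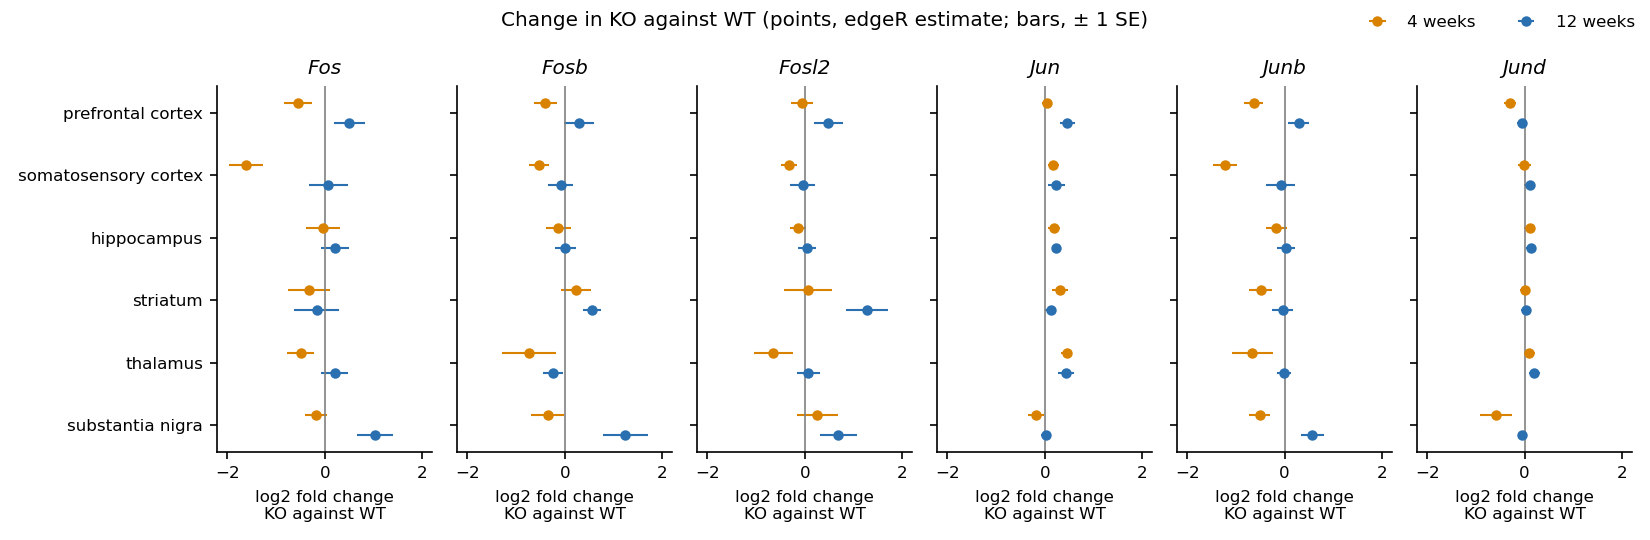
Log2 fold change of the 6 tested members in KO against WT (points, bars ± 1 SE) in the 6 regions at 4 and 12 weeks. Fos and Junb lie farthest below 0 in 4-week somatosensory cortex (-1.61 and -1.22), Fosl2 lies at 1.27 in 12-week striatum, and no point passed the adjusted threshold.

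In striatum Fos libraries at 12 weeks held 6.55, 7.98, 19.7, 26.1 and 46.1 CPM in WT and 9.25, 13, 15, 22.5 and 35.5 CPM in KO. The groups overlapped, with a change of -0.16 ± 0.46 (log2, SE, adjusted p 0.933). At 4 weeks the change was -0.33 ± 0.44 (0.761), and without the libraries with a high cortical score it was -1.05 (0.415). Junb gave -0.49 ± 0.24 at 4 weeks (0.301) and -0.04 ± 0.21 at 12 weeks (0.968). Jund gave 0.00 ± 0.09 and 0.02 ± 0.09, the smallest errors of the family in striatum. Jun gave 0.31 ± 0.16 at 4 weeks, where its sign turned without the libraries of high cortical score (-0.16), and 0.12 ± 0.12 at 12 weeks.

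Fosl2 and Fosb stood higher in 12-week KO striatum without passing the test. Fosl2 libraries held 13.9, 32.8, 37.7, 40.5 and 43.7 CPM in WT, 13.9, 15.1, 52.5, 60.4 and 67.1 in HET and 39.3, 62.8, 78.2, 113 and 115 in KO. The lowest KO library lay among the WT libraries, and HET libraries overlapped both groups. The change from WT to KO was 1.27 ± 0.43 (log2, SE, adjusted p 0.124), and with only these 2 genotypes in the fit the adjusted p was 0.0462.

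Fosb libraries there held 16.5, 18.5, 20, 24 and 27.1 CPM in WT and 24.4, 24.9, 28.3, 35.3 and 45.2 CPM in KO, so that only the highest WT library reached into the KO group. The change was 0.56 ± 0.19 (log2, SE, adjusted p 0.119, and 0.0446 with DESeq2). The scores of all 10 marker lists overlapped between KO and WT in this region and age. For striatal projection neurons they overlapped through WT 3 alone (9.07), with KO at 8.98 to 9.27 and the other 4 WT libraries at 9.32 to 9.5. The part of this score in the Fosb and Fosl2 values was not tested. At 4 weeks Fosl2 gave 0.07 ± 0.50 and Fosb 0.23 ± 0.31.

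In 4-week somatosensory cortex Fos and Junb had their lowest estimates in KO against WT. Fos libraries held 16, 40.8, 42.9, 47.8 and 49.6 CPM in WT and 5.54, 7.78, 12.5, 15.9 and 23.4 CPM in KO, and HET libraries ranged from 15.1 to 42.5 with a median of 23. KO and WT overlapped because WT 142 held 16 CPM. The change was -1.61 ± 0.35 (log2, SE, unadjusted p 0.000206, adjusted p 0.139 by edgeR). DESeq2 gave -1.60 with an adjusted p of 0.0172, and edgeR called it without WT 142 (0.0183) or without KO 163 (0.0356).

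Junb libraries there held 35.9, 59.6, 63.3, 66.2 and 83.9 CPM in WT and 20.8, 22.3, 23.3, 31.9 and 34.5 CPM in KO. KO and WT did not overlap, which held for 0.652% of all genes tested in this comparison. Each KO library also lay below the lowest HET library at 35.5 CPM. KO and HET did not overlap for 122 of 15945 genes, and that comparison shares the KO libraries. The change from WT to KO was -1.22 ± 0.24 (log2, SE, unadjusted p 6.64e-05, adjusted p 0.0882 by edgeR). The adjusted p was 0.00721 with DESeq2, 0.0133 without WT 142 and 0.0407 without HET 93. Fosb gave -0.52 ± 0.20 (0.923), Fosl2 -0.32 ± 0.16, Jun 0.18 ± 0.12 and Jund -0.01 ± 0.13. At 12 weeks Fos and Junb gave 0.08 ± 0.40 and -0.08 ± 0.30.

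Beside 0.0564% of all genes tested, 1 of 16 other immediate early genes was called in these libraries. It was Arc, which encodes a synaptic protein related to retroviral Gag. Arc stood at 482 ± 206 CPM in WT and 121 ± 55.5 CPM in KO (SD, n = 5), with a change of -1.99 ± 0.30 (log2, SE, adjusted p 0.0223). That call was lost with only KO and WT in the fit (0.105) and without KO 12, 161, 51 and 932 and WT 23, 913, 914 and 92, left out singly (up to 0.0819). The median change of the list was -0.63 against 0.00 for all genes, and at 12 weeks it was 0.10. The scores of all 10 marker lists overlapped between KO and WT at 4 weeks, and the totals were 40.6 to 54.6 M in KO and 36.9 to 55.2 M in WT.

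**Figure D3:**
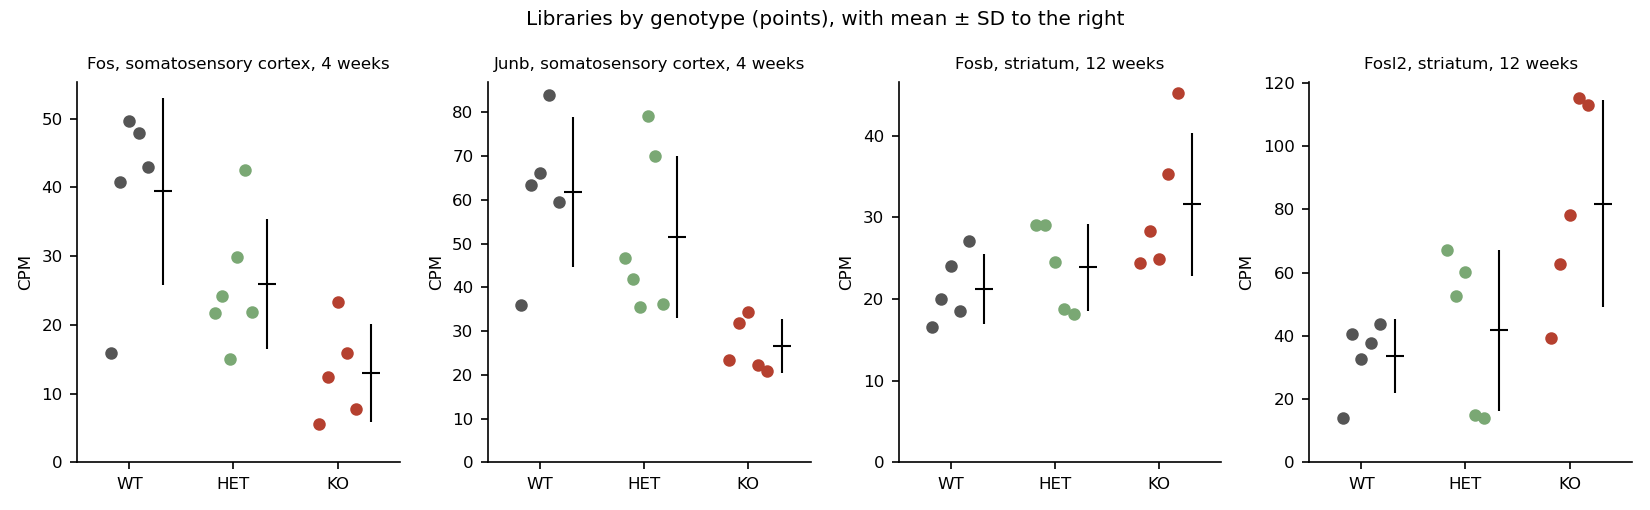
CPM of each library (points) by genotype, with the mean ± SD to the right, for Fos and Junb in 4-week somatosensory cortex and for Fosb and Fosl2 in 12-week striatum. Junb in KO lies wholly below WT, Fos in KO overlaps WT through 1 WT library at 16 CPM, and Fosb and Fosl2 in KO overlap the WT libraries at their lower end.

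In the remaining regions the smallest adjusted p was that of Jun in 4-week thalamus. In 4-week thalamus Jun libraries ranged from 57.4 to 76.1 CPM in WT and held 68.3, 89.9, 95.4, 96.2 and 114 CPM in KO, a change of 0.45 ± 0.11 (log2, SE, adjusted p 0.153, and 0.0153 with DESeq2). The 2 groups overlapped through the lowest KO library, and without the libraries that stood apart the change was 0.38 (0.688). Jun gave 0.43 ± 0.17 in 12-week thalamus (0.59) and 0.47 ± 0.15 in 12-week prefrontal cortex (0.869). In 12-week substantia nigra Fos, Fosb and Junb gave 1.03 ± 0.36 (0.649), 1.24 ± 0.46 (0.649) and 0.57 ± 0.24 (0.716). In 4-week prefrontal cortex Junb gave -0.64 ± 0.20 (0.22) and Jund -0.30 ± 0.12 (0.271). In 4-week thalamus the signs of Fosb, Fosl2 and Junb turned without the libraries that stood apart, from -0.74 ± 0.55, -0.64 ± 0.39 and -0.66 ± 0.42 to 0.43, 0.21 and 0.26. In 4-week substantia nigra Jund gave -0.59 ± 0.33, and 0.03 without them.

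Whether the KO effect differed between ages was tested in 1 fit per region. No gene of any kind was called by edgeR, a share of 0% in each of the 6 regions, and DESeq2 called 1 to 17. Between 468 and 1261 genes had an unadjusted p under 0.05, a share of 2.84% (hippocampus) to 7.5% (substantia nigra). Among members 8 of 36 tests had an unadjusted p under 0.05, in each case with the higher KO effect at 12 weeks, and the smallest adjusted p was 0.55. These tests are not independent, since Fosb and Junb varied with Fos between libraries of the regions concerned. The estimates were 1.69 ± 0.57 for Fos and 1.15 ± 0.41 for Junb in somatosensory cortex (log2, SE). In substantia nigra they were 1.2 ± 0.46 for Fos, 1.58 ± 0.61 for Fosb and 1.06 ± 0.34 for Junb. In prefrontal cortex they were 1.06 ± 0.45 for Fos, 0.43 ± 0.19 for Jun and 0.93 ± 0.31 for Junb.

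A further fit per age compared the KO effect of striatum with the average over the 5 remaining regions. The share of genes called was 3.52% at 4 weeks and 3.11% at 12 weeks, and no member was called by edgeR. Of all genes, 14.04% had an unadjusted p under 0.05 at 4 weeks and 12.73% at 12 weeks. Among members there were 0 of 6 at 4 weeks and 1 of 6 at 12 weeks. The latter was Fosl2, at 1.02 ± 0.37 (log2, SE, adjusted p 0.14). At 4 weeks Fos gave 0.26 ± 0.40 and Jun 0.18 ± 0.16, and both signs turned without the libraries that stood apart (-0.47 and -0.27).

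In HET against WT no member was called by edgeR or DESeq2. At an unadjusted p under 0.05 there were 2 of 36 tests at 4 weeks and 1 of 36 at 12 weeks. Of all genes, 1.89% (striatum) to 16.3% (thalamus) passed that threshold at 4 weeks. At 12 weeks 1.655% (somatosensory) to 9.36% (thalamus) did. The share of all genes called by edgeR at 4 weeks was 0.00639% (thalamus), 0.00648% (striatum), 0% (hippocampus), 0% (substantia nigra), 0.00626% (prefrontal) and 0.00627% (somatosensory). At 12 weeks it was 0.0064%, 0.0064%, 0.00608%, 0.00606%, 0.00613% and 0.00629% in the same order. In 4-week thalamus the signs of Fosb, Fosl2, Junb and Jund turned without the libraries that stood apart, to 0.555, 0.292, 0.268 and 0.008. In 12-week hippocampus Jun ranged from 88.8 to 103 CPM in HET and from 69.2 to 87.6 CPM in WT, without overlap, as did 64 of 16438 genes (0.20 ± 0.07, log2, SE, unadjusted p 0.0143, adjusted p 1). KO against HET in striatum, which shares the KO libraries with KO against WT, called no member by edgeR or DESeq2 beside 3.88% of genes at 4 weeks and 4.79% at 12 weeks. Its smallest member adjusted p were 0.139 for Junb at 4 weeks (-0.65 ± 0.24) and 0.255 for Fosl2 at 12 weeks (0.95 ± 0.42). Without the libraries of high cortical score the 4-week Junb value was -0.54 (adjusted p 0.435).

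Other genes of the pathway were taken from 4 lists, of 13 bZIP partners of AP-1, 24 upstream kinases and factors, 16 other immediate early genes and 12 genes described as AP-1 targets. In 4-week striatum, KO against WT called 0 of 11 tested bZIP partners, 2 of 24 upstream genes (1 higher, 1 lower), 2 of 16 immediate early genes (both lower) and 1 of 9 targets (higher). At 12 weeks the counts were 0 of 11, 3 of 24 (1 higher, 2 lower), 2 of 16 (both lower) and 2 of 9 (1 higher, 1 lower). The share of all genes called was 3.35% at 4 weeks and 4.42% at 12 weeks. The lists were chosen with earlier results of these data known, so these counts are not a result about the pathway. The median changes of the 4 lists were 0.15, 0.00, -0.25 and 0.20 at 4 weeks and 0.02, -0.02, 0.34 and 0.12 at 12 weeks, against 0.00 and 0.01 for all genes. The immediate early list thus had a median above 0 at 12 weeks although both of its calls were lower.

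Upstream, Elk1, an ETS partner of SRF, stood at 94 ± 9.68 CPM in WT and 63.9 ± 6.95 in KO at 4 weeks. Its 12-week means were 91.2 ± 11.8 CPM in WT and 66.3 ± 4.18 in KO (SD, n = 5 throughout). KO and WT did not overlap at either age, which held for 560 of 15425 genes at 4 weeks and 875 of 15622 at 12 weeks. The changes were -0.56 ± 0.08 (log2, SE, adjusted p 0.00135) and -0.47 ± 0.09 (0.00661). Crem, which encodes cAMP-responsive activators and the repressor ICER, rose at 4 weeks (0.48 ± 0.09, adjusted p 0.00637). At 12 weeks the kinase gene Gsk3b fell (-0.34 ± 0.08, 0.0172) and Map2k1, which encodes MEK1, rose (0.23 ± 0.06, 0.034). The Map2k1 call was lost without KO 1, 3, 4 and 5 and WT 1, 2, 4 and 5, left out singly (adjusted p up to 0.0939).

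Among the immediate early genes, Egr2, a zinc-finger factor, stood at 43.3 ± 19.3 CPM in WT and 3.72 ± 1.68 in KO at 4 weeks. Its 12-week means were 23.9 ± 9.78 CPM in WT and 3.02 ± 2.1 in KO (SD, n = 5 throughout). Its changes were -3.53 ± 0.39 (log2, SE, adjusted p 8.54e-05) and -2.99 ± 0.45 (0.000975), in the same libraries in which Fos gave -0.33 ± 0.44 and -0.16 ± 0.46. Egr1 fell at 4 weeks (-0.89 ± 0.23, adjusted p 0.0463), a call lost without any of 12 of 15 libraries (up to 0.125). Without the libraries of high cortical score it was -0.62 (0.347). Ier5 fell at 12 weeks (-0.31 ± 0.08, 0.0272), a call lost without KO 2 and 5 and WT 1, 2 and 4, left out singly (up to 0.0789).

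Downstream, Pdyn, which encodes the opioid precursor prodynorphin, stood at 84.6 ± 16.7 CPM in WT and 141 ± 23.7 in KO at 4 weeks. Its 12-week means were 86.4 ± 25.7 CPM in WT and 179 ± 32.4 in KO (SD, n = 5 throughout). KO and WT did not overlap at either age, and Pdyn rose by 0.73 ± 0.16 (log2, SE, adjusted p 0.0177) and 1.03 ± 0.23 (0.0157). The 4-week call was lost without WT 42 (adjusted p 0.0509). The cyclin gene Ccnd1 fell at 12 weeks (-0.44 ± 0.11, 0.0387), a call lost without HET 3, KO 3, 4 and 5 and WT 1, 2 and 4, left out singly (up to 0.106).

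KO against HET in striatum called Egr2, Elk1, Mapk10, Pdyn and Scg2 at 4 weeks. At 12 weeks it called Ccnd1, Egr1, Egr2, Elk1, Gsk3b, Jdp2, Klf10 and Pdyn. Egr2 at both ages, Elk1 at 12 weeks and Pdyn at 4 weeks were called in every alternative run and without each library in turn. Of 15 libraries left out singly, the number that ended the call was 10 for Mapk10 and 9 for Scg2, and at 12 weeks 8 for Jdp2, 7 each for Egr1 and Klf10, 6 each for Ccnd1 and Pdyn, and 4 for Gsk3b. Without the libraries of high cortical score, Mapk10, Scg2 and 4-week Elk1 were not called (adjusted p 0.176, 0.108 and 0.0605). Jdp2, which encodes a repressor that pairs with Jun proteins, was the only bZIP partner called, at -0.33 ± 0.09 (log2, SE, adjusted p 0.0406, and up to 0.105 with a library left out). Outside striatum, Arc in 4-week somatosensory cortex was the only gene of the 4 lists called in KO against WT.

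Members were then compared between libraries of 1 region, after the mean of each group of age and genotype was subtracted from log2(CPM + 1). There were 36 pairs of region and member, with two-sided permutation p-values from 100000 resamples adjusted over the 36, and each library was taken as independent. Of these, 17 had an adjusted permutation p under 0.05. Fosb varied with Fos in 6 of 6 regions by this threshold and Junb in 5, Fosl2 in 3, Fosl1 in 2, Jun in 1 and Jund in 0. The 2 pairs of Fosl1 rest on values near the floor, with a median of 0.0248 CPM and 0 in 58 libraries. They were those of prefrontal cortex and striatum. By Spearman rho, Fosl1 did not pass in prefrontal cortex (adjusted permutation p 0.0544) but did in striatum (0.0172) and thalamus (0.0443).

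The highest correlation was that of Fos and Junb in prefrontal cortex, with Pearson r 0.923 over 31 libraries (permutation p 1e-05, the smallest these resamples can give, adjusted p 0.00012). Spearman rho was 0.894 (permutation p 1e-05), and r without the 2 libraries farthest from the median was 0.892. Fos and Fosb gave r 0.842 in prefrontal cortex (rho 0.844, permutation p 1e-05 for both, 0.84 without 2 libraries). In substantia nigra they gave 0.839 (permutation p 2e-05, rho 0.839, permutation p 1e-05).

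Thalamus was the region where Junb did not pass, with r 0.369 (permutation p 0.139, adjusted p 0.192) and rho 0.265 (permutation p 0.182). Jun passed in prefrontal cortex, with r 0.693 (permutation p 0.00019, adjusted p 0.000977), rho 0.663 (permutation p 0.00027) and r 0.58 without 2 libraries. In hippocampus its r was -0.481 (permutation p 0.0507, adjusted p 0.0913), with rho -0.272 (permutation p 0.168) and r -0.256 without 2 libraries. Jund ran from r -0.408 in striatum (permutation p 0.0437, adjusted p 0.0827) to 0.247 in hippocampus (permutation p 0.291, adjusted p 0.349).

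**Figure D4:**
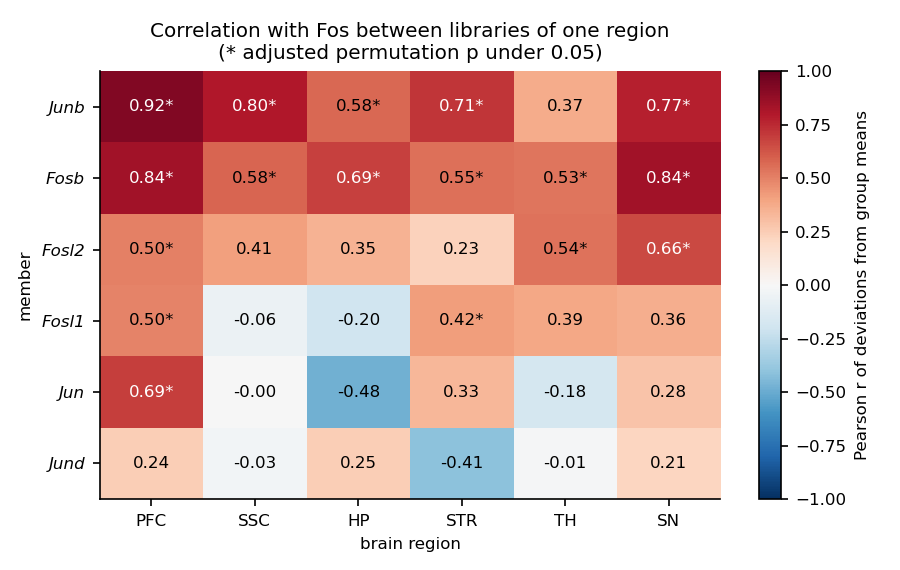
Pearson r of each member with Fos between libraries of 1 region, computed on deviations from group means, as a heat map of members by regions. Stars mark an adjusted permutation p under 0.05, which Fosb has in 6 regions, Junb in 5 and Jund in 0.

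The genes nearest to each member over all libraries, among 14083 genes, are given as a description with no p, since the values share libraries and depth. For Fos they were Egr2 (Pearson r 0.742), Sik1 (0.695), Dusp1 (0.669), Nr4a1 (0.656) and Trib1 (0.599). For Fosb they were Egr4 (0.732), Nr4a1, Sik1, Egr2 and Egr1. Fosl2 was nearest to Nr4a3 (0.808), then Nr4a1, Egr4, Egr3 and Srf. Junb was nearest to Nr4a1 (0.76), then Egr4, Egr2, Arc and Plk2. For Jun the values were lower, with Wnt7b (0.51), Mycl, Klhl40, Cyr61 and Tpst2. For Jund they were higher, with Scand1 (0.892), Zfp771, Pcsk1n, Tpgs1 and Pgp.

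Of the 16 other immediate early genes, 12 were among the 100 genes nearest to Junb, 10 for Fos, 9 for Fosb and 8 for Fosl2, against 2 for Jun and 0 for Jund. Between members over all libraries, Fosb and Fosl2 had the highest r (0.724), followed by Fos and Junb (0.683) and Fos and Fosb (0.654). Jun and Jund gave 0.273, and Fos with Jun 0.133.

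Libraries of 1 genotype that carry the same number in different regions were compared last, a comparison chosen after the values were seen. The labels do not say that they come from the same animal. At 12 weeks WT 1 had the lowest Fos of its group in 6 of 6 regions, from 6.55 CPM in striatum, 6.71 in substantia nigra and 7.59 in hippocampus to 9.67 in somatosensory cortex, 10.3 in thalamus and 19.6 in prefrontal cortex. HET 5 was likewise lowest in 6 of 6 regions, and KO 2 in 4 of 6. At 4 weeks KO 161 had the lowest Fosb of its group in 6 of 6 regions.

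Across the 15 pairs of regions, r of the Fos deviations over 27 to 30 shared numbers ran from 0.254 to 0.717 with a median of 0.447, and rho from 0.244 to 0.621. Of these pairs, 3 had an adjusted permutation p under 0.05. The median r was 0.223 at 4 weeks and 0.643 at 12 weeks, and 0.317 without the 2 farthest libraries of each pair. Fosl2 had a median r of 0.478 with 7 of 15 pairs under the threshold, Fosb 0.365 with 5 and Junb 0.28 with 3. Jun had 0.163 and Jund -0.0827, each with 0 pairs.

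**Figure D5:**
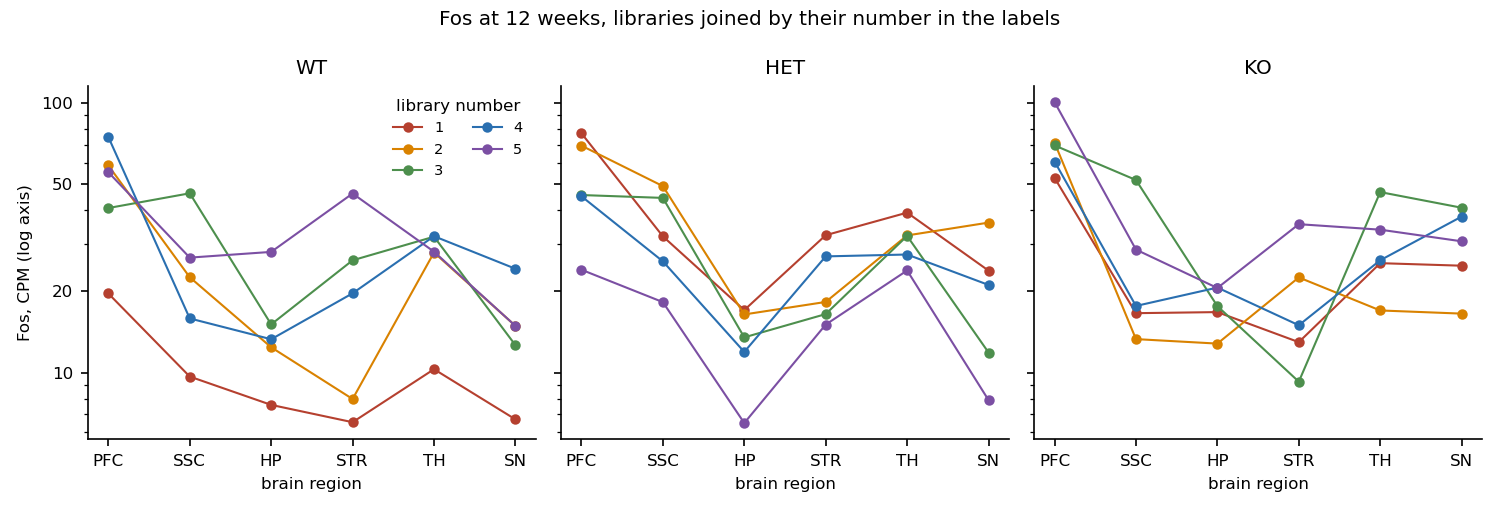
Fos CPM (log axis) at 12 weeks in the 6 regions, with libraries of the same number joined by a line, for WT, HET and KO. WT 1 (6.55 to 19.6 CPM) and HET 5 (6.5 to 24.1 CPM) lie below the other lines of their genotype in each region.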

How the data were processed

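Bulk RNA was measured in mouse brain libraries, made from 200 ng total RNA with a stranded poly(A) kit per the labels' protocols. The deposited table holds expected counts per gene symbol, made by the authors with Salmon and mm10 per the submitters' processing notes. Versions, annotation and strand setting were not given in the sources used here. Members and gene lists were chosen with earlier results of these data known.

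Expected counts were rounded, filtered with filterByExpr, scaled by TMM and tested with edgeR 4.0.16 in R 4.3.3, with a quasi-likelihood test and Benjamini-Hochberg adjustment over all genes (threshold 0.05). The genotypes of 1 region and age were fitted together. CPM use 1 TMM scale over all libraries. Correlations used Python 3.11.15, numpy 2.4.6 and scipy 1.17.1. Tests were run on simulated counts with 1 fixed spread for all genes and independent libraries. That check does not cover the spread of the members or the pairing of libraries in these data. No 2 of the 390 replicate pairs agreed within sampling noise (lowest chi-square per degree of freedom 6.88).

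Named genes were the 7 members and Akap11, list genes called in striatal KO comparisons (up to 8 per list and age, elsewhere 3), and the 5 genes most correlated with a member. Alternatives were DESeq2 1.42.0, RLE size factors, no filter, 2 genotypes only, a cortical-score covariate, a replicate block (limma 3.58.1 across regions), handling of 16 libraries with few whole-number values, and leaving out libraries. The main tests did not use library numbers to pair libraries, and the WT region tests took same-numbered libraries as independent. Numbers were used in the block fits and in the comparison of same-numbered libraries between regions. Of 90 pairs of same-numbered 12-week libraries of different genotypes, 62 correlated above 0.1 (median 0.166). Of 424 same-numbered pairs of different regions, within 1 age and genotype, 236 did (median 0.122).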

Additional observations from a re-analysis of the deposited data

Results flagged for a closer look

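Each group of region, age and genotype was screened for 1 library far from the rest, in CPM, and 22 of 216 groups of the 6 tested members held one. Chance flags about 1 in 20 groups. The values are given without explanation.

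For Fos the libraries far from their group were HET 941 in 4-week hippocampus (48.1 CPM against 9.68 to 20.6), WT 142 in 4-week somatosensory cortex (16 against 40.8 to 49.6), WT 913 in 4-week striatum (48.4 against 15.8 to 23.7) and WT 1 in 12-week thalamus (10.3 against 27.9 to 32). For Fosb they were HET 941 in 4-week hippocampus (16.4 CPM), WT 23 in 4-week substantia nigra (4.91), HET 931 in 4-week somatosensory cortex (12.8) and striatum (35.6), HET 162 in 4-week thalamus (2.69) and HET 2 in 12-week somatosensory cortex (19.4). For Fosl2 they were WT 42 in 4-week hippocampus (23.4 CPM), HET 931 in 4-week somatosensory cortex (72.8), WT 4 in 12-week substantia nigra (10.9) and HET 2 in 12-week somatosensory cortex (75.4).

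For Jun they were KO 163 in 4-week substantia nigra (53.7 CPM) and HET 1 in 12-week hippocampus (103) and prefrontal cortex (61.9). For Junb they were WT 913 in 4-week thalamus (45.6 CPM), KO 2 in 12-week hippocampus (33.6) and WT 1 in 12-week prefrontal cortex (51.1). For Jund they were WT 92 in 4-week substantia nigra (376 CPM) and HET 93 in 4-week somatosensory cortex (158).

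For some list genes the KO effect of striatum differed from the average over the 5 remaining regions by edgeR's quasi-likelihood test with Benjamini-Hochberg adjustment. At 4 weeks the differences (log2, SE) were 2.07 ± 0.51 for Bdnf (adjusted p 0.00947), 0.51 ± 0.11 for Crem (0.00197), -2.63 ± 0.66 for Egr2 (0.0107), -0.49 ± 0.14 for Elk1 (0.0247), 1.30 ± 0.32 for Ier2 (0.00854) and 0.43 ± 0.12 for Mapk10 (0.0217). At 12 weeks they were -2.77 ± 0.68 for Egr2 (0.00809), -0.45 ± 0.10 for Elk1 (0.00232), -0.31 ± 0.08 for Gsk3b (0.01) and 0.20 ± 0.06 for Map2k1 (0.0439). Without the 4-week libraries that stood apart, Bdnf, Ier2, Elk1 and Mapk10 were not called, and Egr2 gave -4.24. Leaving out a single library also ended the 4-week call for Bdnf (3 of 10 striatal libraries), Elk1 (3), Ier2 (2) and Mapk10 (5). At 12 weeks Gsk3b was not called without striatal WT 4 (0.0868). Map2k1 was not called without any of 7 of 10 striatal libraries (up to 0.123) or with RLE size factors (0.0539).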

How the results depend on the processing

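The count of members called in KO against WT was 0, and became 3 with DESeq2 in the 5 other regions at 4 weeks and 1 in 12-week striatum, both with DESeq2 and with only the 2 genotypes in the fit. Leaving out 1 library gave 0 to 2 in the 5 other regions at 4 weeks and 0 in the other genotype counts. The count for WT age was 8 and ranged from 7 to 11 over settings and from 6 to 10 over single libraries left out. For WT regions the count was 22 at 4 weeks (21 to 23 in both) and 23 at 12 weeks (23 to 24, and 23 to 26 without 1 library). The 17 pairs correlated with Fos became 17 to 19. Without the libraries that stood apart, chosen after seeing the data, the Bdnf difference between striatum and the other regions at 4 weeks reversed from 2.07 to -0.052 (adjusted p 1), and the cause was not tested.

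With the replicate number as a block, the count of members differing between striatum and the other regions rose from 0 to 1 (limma-voom). Block fits changed 5 results: Fosl2 at 12 weeks (1.05, adjusted p 0.0466) and Junb in 4-week WT somatosensory cortex (0.60, adjusted p 0.0421) were gained, and Jdp2 in KO against HET (0.0522), Bdnf (0.308) and Ier2 (0.108) were lost. Over 408 results, leaving out 1 library lost 27 calls, 7 of them of members, and gained 18 of members. Fosl1, with at most 14 expected counts in a library, was filtered out of the main fits, and its correlation with Fos rests on values near the floor.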
